A study of Mus musculus with 10 samples.

Results

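Transcripts of 8 genes of sterol synthesis and its control by sterol regulatory element binding proteins (SREBPs), namely Hmgcs1, Insig1, Sqle, Idi1, Fdps, Fdft1, Cyp51 and Lss, were followed in mouse myeloblasts after transcription had been stopped. All probe sets that the platform annotation assigns to 1 of these genes alone were taken, which gave 19 of 22690 probe sets, for 7 of the 8 genes and of 12394 genes in all. No probe set named Insig1 alone, so that Insig1 was not analysed here. The cells were 32Dcl3, an established mouse myeloblast line that needs interleukin 3 (IL-3) to grow, and RNA was measured on 10 Affymetrix mouse arrays in 5 groups of 2. In each of 2 experiments cells were washed free of IL-3, given actinomycin D at 10 µg/ml, which blocks transcription, and returned to high IL-3 (1 ng/ml) or low IL-3 (10 pg/ml). They were collected at 0 h, and at 2 h and 4 h with either dose. Every group after 0 h therefore carried actinomycin D, and low IL-3 was not the complete absence of cytokine. The labels differ on whether the 0 h cells were taken just before or after actinomycin D, while the study's methods count time from the addition of cytokine, which came after the drug. Each experiment was 1 divided culture, and the fit takes out the overall level of each experiment. The p-values therefore measure how differences between groups varied across 2 cultures of 1 line, not how the levels of the cultures differed. The spread behind them was estimated over all 5 groups and moderated towards that of probe sets of like signal. It is thus not the spread of 1 probe set alone. Values are intensities on a linear scale, and 15 of the 19 probe sets, for all 7 genes, had the mean intensity of at least 50 needed to be tested, as had 11856 probe sets in all.

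Cholesterol is made from acetyl-CoA in the mevalonate pathway. HMG-CoA synthase (Hmgcs1) makes the precursor of mevalonate. Isopentenyl diphosphate isomerase (Idi1) and farnesyl diphosphate synthase (Fdps) then build the farnesyl chain, and squalene synthase (Fdft1) commits it to sterols. Squalene epoxidase (Sqle) and lanosterol synthase (Lss) form the first sterol, and lanosterol demethylase (Cyp51) starts its trimming to cholesterol. When sterols in the endoplasmic reticulum run low, SCAP carries SREBPs to the Golgi, where proteases release the part that enters the nucleus and switches on these genes. INSIG proteins hold SCAP back when sterols are plentiful. In these arrays new transcription was blocked, and what was followed is the loss of messages that were already there.

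SREBPs are known to act on such promoters together with NF-Y and Sp1, and stretches that hold the letters of these motifs are shown here for the members found, although after actinomycin D the arrays do not read promoter activity. Promoters of 5 of the 8 genes (Hmgcs1, Insig1, Idi1, Cyp51 and Lss) were found in the RefSeq table of build GRCm38.p6, each of 300 bases from 250 before to 50 after the start site. They were searched on both strands for TCACNCCAC, the core of the sterol regulatory element, for CCAAT, bound by NF-Y, and for GGGCGG, bound by Sp1. Of all 32851 promoters in the table, 1.24% held the first, 37.4% the second and 35.7% the third. The core of the sterol regulatory element was matched in Hmgcs1 alone among the 5, 137 bases before the start site, and CCAAT and GGGCGG were each matched in all 5, with no match overlapping another. The windows of 30 bases that follow are written 5′ to 3′ on the strand of the gene, and the capitals mark TCACNCCAC in the first line and CCAAT, or ATTGG where it lies on the other strand, in the rest.
Hmgcs1, chr13:119690204-119690233, plus strand: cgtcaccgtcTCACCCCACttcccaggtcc
Hmgcs1, chr13:119690294-119690323, plus strand: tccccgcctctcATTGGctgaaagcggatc
Idi1, chr13:8885549-8885578, plus strand: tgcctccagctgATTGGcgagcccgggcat
Cyp51, chr5:4104709-4104738, minus strand: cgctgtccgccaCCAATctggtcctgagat
Lss, chr10:76531531-76531560, plus strand: ggtgatgctctgATTGGccgagctcgcatc
Insig1, chr5:28071184-28071213, plus strand: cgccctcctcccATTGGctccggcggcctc
The matches are of letters only, and a motif not found in a window says nothing about the factor outside it.

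The members ranged from messages that were lost fast to messages that stayed, with others between. Sqle fell most, to 12.5% ± 2.18 of its 0 h signal after 4 h with low IL-3 and to 10.9% ± 2.30 with high IL-3 (SD, n = 2 experiments, as in all such percentages). Hmgcs1 and Fdft1 followed, with 22.0% ± 1.60 and 25.8% ± 13.2 left in low IL-3 by their brightest probe sets. Cyp51 fell less by its brightest probe set and mostly after 2 h, though its loss before and after 2 h did not differ past the threshold as deposited. Its fall in high IL-3 was lost after 75th percentile scaling and after quantile normalization, and its dimmer tested probe set was not called as deposited. Under either of these scalings that dimmer probe set was called as a rise by 2 h at both doses. Fdps passed in low IL-3 with a small fall that was not there after scaling to the 75th percentile. Idi1 and Lss did not pass the test by their brightest probe sets as deposited, though both were called as rises by 4 h after scaling to the 75th percentile. Between the IL-3 doses, 1 of the 3 tested probe sets of Fdft1 passed the test, with more signal left in high IL-3, a call that was lost under 9 of the 18 alternatives run, and no other member did.

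In low IL-3, 9 of the 15 tested member probe sets, for 5 of 7 genes, had fallen by 4 h, and 1 had risen. Of all 11856 tested probe sets, 38.3% fell and 15.3% rose in that comparison. In high IL-3, 8 probe sets of 4 genes had fallen and 1 had risen by 4 h, where 35.4% of all tested probe sets fell and 9.67% rose. By 2 h, 7 probe sets of Hmgcs1, Fdft1 and Sqle had fallen at either dose, against 23.0% of all in low and 22.6% in high IL-3, and none had risen, against 1.58% and 3.48%. Without the 0 h array of experiment 1, 4 rather than 7 had fallen by 2 h in high IL-3. The median change of the 15 by 4 h in low IL-3 was -0.95 on the log2 scale beside -0.12 over all tested probe sets, and in high IL-3 it was -0.52 beside -0.097. The 4 probe sets of Hmgcs1 read 1 message and are not separate evidence, and with 1 probe set per gene, the brightest, 5 of 7 had fallen by 4 h in low and 4 of 7 in high IL-3. Log2 changes are of log2(intensity + 16), which understates the changes of dim probe sets. The signal of an array is relative to all RNA on it, and counts of falls and rises move with the scaling. With transcription blocked, the study's supplementary methods treat values above 0 h as measurement noise. A rise here and below is a higher relative signal, and its cause was not tested. After scaling each array to a common 75th percentile, the median change of all tested probe sets by 4 h in low IL-3 was 0.30, and after quantile normalization it was 0.15. Of the calls in that comparison over all tested probe sets, 28.6% were rises as deposited, 67.2% after the former and 60.4% after the latter. The members then had 8 falls and 4 rises after the former, and 9 falls and 3 rises after the latter. In high IL-3 the share of rises went from 21.4% to 69.4% and 62.1%, with 7 member falls in both cases beside 6 and 3 rises. By 2 h it went from 6.42% to 70.6% and 58.9% in low IL-3, with 7 member falls in both cases beside 4 and 2 rises. In high IL-3 it went by 2 h from 13.3% to 68.6% and 58.5%, with 4 member falls in both cases beside 5 and 3 rises. For this reason changes from 0 h are also given relative to the median of all tested probe sets. The falls of Sqle, of Fdft1 1448130_at and of all 4 Hmgcs1 probe sets by 4 h passed at both doses under all 18 alternatives run. Less RNA per cell and fewer cells of a kind cannot be told apart in such bulk samples.

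**Figure D1:**
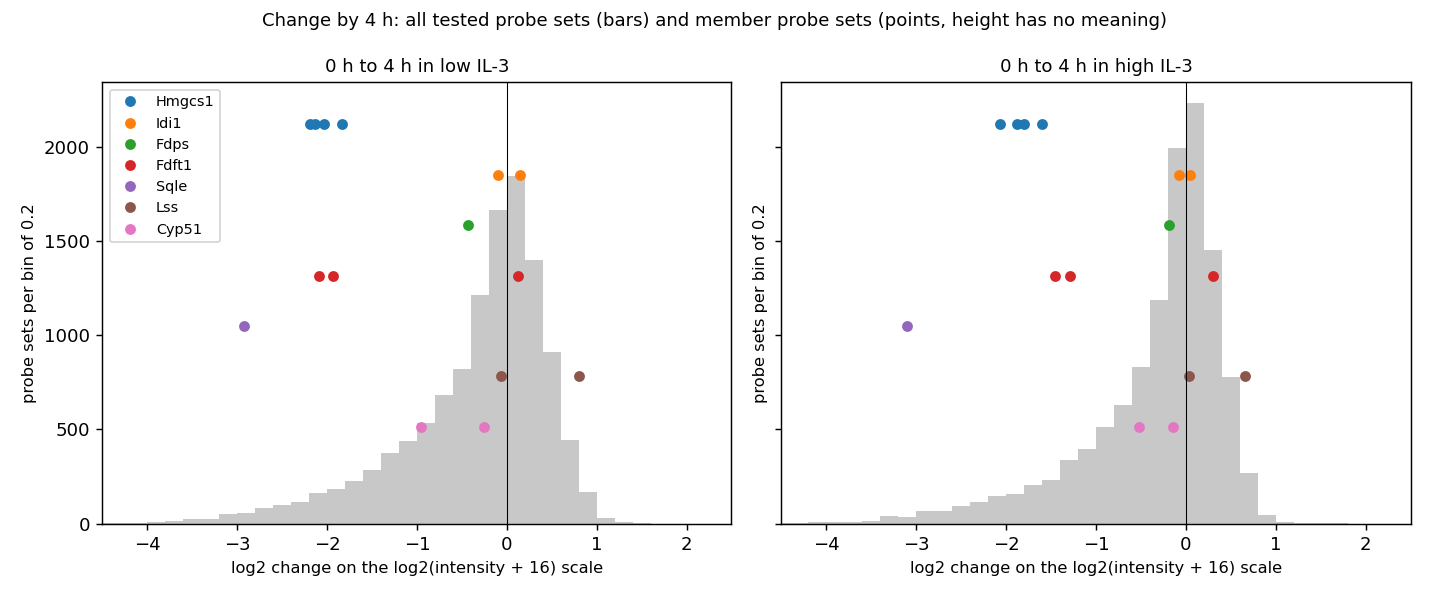
Log2 change from 0 h to 4 h (x axis) in low IL-3 (left) and high IL-3 (right), with grey bars for the number of probe sets among 11856 in each bin of 0.2 and points for the 15 tested member probe sets, coloured by gene. Sqle lies at -2.92 and -3.11, Hmgcs1 and 2 of the 3 Fdft1 probe sets lie in the left tail, and Idi1 lies at the peak of the distribution.

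The first enzyme, HMG-CoA synthase, is measured by 4 probe sets. The brightest is 1433445_x_at, whose suffix marks probes that can also match other transcripts. Hmgcs1 1433445_x_at had an intensity of 2217 at 0 h in experiment 1, of 1267 and 617 with high IL-3 and of 1204 and 464 with low IL-3. Experiment 2 gave 1517, then 790.3 and 382, and 752 and 352. That order, 0 h, then 2 h and 4 h with high IL-3, then 2 h and 4 h with low IL-3, holds for all values of this kind. Signal was lower at every later array than at 0 h of the same experiment, and the 2 h arrays of both doses lay above all 4 h arrays. The log2 change by 4 h was -2.14 (SE 0.12, adjusted p = 1.19e-09) with low IL-3 and -1.88 (SE 0.12, adjusted p = 3.16e-09) with high IL-3, or -2.02 and -1.79 relative to the median.

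The other probe sets of Hmgcs1 gave the same picture. Hmgcs1 1433444_at had an intensity of 2089.7 at 0 h in experiment 1, of 1188 and 609 with high IL-3 and of 1195 and 477 with low IL-3. Experiment 2 gave 1454, then 773 and 392, and 706 and 357. Again every later array lay under 0 h of its experiment. Its log2 changes by 4 h were -2.04 in low and -1.80 in high IL-3. Hmgcs1 1433443_a_at had an intensity of 1841 at 0 h in experiment 1, of 937 and 396 with high IL-3 and of 852 and 343 with low IL-3. Experiment 2 gave 1028, then 555 and 251, and 425 and 242. The groups ran in the same order, with all 2 h arrays above all 4 h arrays. Here the changes were -2.19 and -2.07, the steepest of the 4 in both doses. Hmgcs1 1433446_at had an intensity of 447 at 0 h in experiment 1, of 328 and 132 with high IL-3 and of 211 and 111 with low IL-3. Experiment 2 gave 389, then 253 and 122, and 199.6 and 101. This dimmest of them changed by -1.83 and -1.60. All 4 had fallen at 2 h and at 4 h in both doses, with adjusted p between 1.19e-09 and 0.018. The call of 1433446_at by 2 h in high IL-3 was lost without the 0 h array of either experiment, without the 2 h high IL-3 array of experiment 2, and under both scalings. When the level of each experiment was not taken out, none of the 4 was called by 2 h at either dose. From the loss over 4 h, the half-life by 1433445_x_at in experiments 1 and 2 was 2.22 and 2.03 h in high IL-3 and 1.85 and 1.91 h in low IL-3. After 75th percentile scaling the mean moved from 2.13 to 2.83 h in high and from 1.88 to 2.43 h in low IL-3. After quantile normalization it was 2.48 and 2.18 h.

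Idi1, which interconverts the isoprene building blocks of the pathway, was not called in any comparison as deposited. Idi1 1451122_at had an intensity of 1908 at 0 h in experiment 1, of 1780.4 and 1720.1 with high IL-3 and of 1807 and 1664 with low IL-3. Experiment 2 gave 1243, then 1231 and 1248, and 1264 and 1238. Arrays differed by experiment and hardly by time, and 93.4% ± 8.76 of the 0 h signal was left by 4 h with low IL-3 and 95.2% ± 7.20 with high IL-3. The log2 changes by 4 h, -0.10 (SE 0.09, adjusted p = 0.359) and -0.072 (SE 0.09, adjusted p = 0.541), did not pass, and they turned positive after scaling to the 75th percentile. Relative to the median they were 0.019 and 0.025. Idi1 1423804_a_at had an intensity of 1174 at 0 h in experiment 1, of 1218 and 1098 with high IL-3 and of 1086 and 1178 with low IL-3. Experiment 2 gave 888, then 1205 and 1019.7, and 843 and 1092. The array of experiment 2 with high IL-3 at 2 h was the highest of its experiment, and by 4 h neither dose passed, with changes of 0.15 (SE 0.11, adjusted p = 0.286) in low and 0.05 (SE 0.11, adjusted p = 0.75) in high IL-3. After scaling to the 75th percentile it was called as a rise, of 0.59 in low and 0.48 in high IL-3, and so it was after quantile normalization, with 0.45 and 0.35. By 2 h in high IL-3 it was called under both as well, with 0.51 and 0.46.

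Farnesyl diphosphate synthase, Fdps, makes the chain that is used for sterols, for dolichol and for anchoring proteins to membranes. Fdps 1423418_at had an intensity of 2219 at 0 h in experiment 1, of 2653 and 1872 with high IL-3 and of 2099 and 1660.1 with low IL-3. Experiment 2 gave 1839, then 1889 and 1691, and 1713 and 1346. Both 4 h low IL-3 arrays were the lowest of their experiment, and the 2 h high IL-3 arrays were the highest. In low IL-3 74.0% ± 1.13 was left at 4 h, a log2 change of -0.43 (SE 0.09, adjusted p = 7.83e-04), and in high IL-3 88.2% ± 5.37, a change of -0.18 (SE 0.09, adjusted p = 0.113) that did not pass. The fall in low IL-3 became 0.011 after scaling to the 75th percentile, and relative to the median of all tested probe sets it was -0.31 as deposited. A further probe set, all of whose values lay far under 50, was not tested. Fdps 1438150_at had an intensity of 6.04 at 0 h in experiment 1, of 2.79 and 1.61 with high IL-3 and of 1.17 and 1.00 with low IL-3. Experiment 2 gave 1.97, then 2.66 and 4.72, and 1.13 and 2.45.

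Squalene synthase, Fdft1, is the first enzyme of the branch that leads to sterols alone. Fdft1 1448130_at had an intensity of 451 at 0 h in experiment 1, of 327 and 142 with high IL-3 and of 218 and 82.1 with low IL-3. Experiment 2 gave 469, then 299 and 173, and 219 and 111. At each time both high IL-3 arrays lay above both low IL-3 arrays, a description for which no share over all tested probe sets is given. The signal left was 68.1% ± 6.27 at 2 h and 34.2% ± 3.70 at 4 h with high IL-3, and 47.6% ± 1.09 and 20.9% ± 3.82 in low IL-3. By 4 h the log2 change was -2.09 (SE 0.16, adjusted p = 1.93e-08) in low and -1.46 (SE 0.16, adjusted p = 1.11e-06) in high IL-3, or -1.97 and -1.36 relative to the median. The half-life in experiments 1 and 2 was 2.64 and 2.83 h in high IL-3 and 1.68 and 1.90 h in low IL-3. Its fall by 2 h in high IL-3, -0.53 (SE 0.16, adjusted p = 0.0196), was lost under both scalings and without either 0 h array or the 2 h high IL-3 array of experiment 2. With no block for the experiment it was lost too.

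A brighter Fdft1 probe set is again of the kind that can match other transcripts. Fdft1 1438322_x_at had an intensity of 830.3 at 0 h in experiment 1, of 424 and 286 with high IL-3 and of 383 and 137 with low IL-3. Experiment 2 gave 362, then 278 and 162, and 192 and 127. Its 0 h arrays were far apart, and the high IL-3 array lay above the low IL-3 array of the same experiment in all 4 pairs. Its changes by 4 h were -1.94 (SE 0.20, adjusted p = 5.70e-07) in low and -1.28 (SE 0.20, adjusted p = 5.60e-05) in high IL-3. Its fall by 2 h in high IL-3, -0.65 (SE 0.20, adjusted p = 0.023), was lost under both scalings and without the 0 h or the 2 h high IL-3 array of experiment 1. It was lost as well with no filter on signal, with no variance trend and with no block for the experiment. The half-life from it was 2.47 and 3.70 h in high and 1.58 and 2.54 h in low IL-3, and the mean in high IL-3, 3.09 h, became 4.67 h after scaling to the 75th percentile and 4.92 h after quantile normalization. The remaining tested probe set lay near the limit of 50. Fdft1 1438918_at had an intensity of 43.7 at 0 h in experiment 1, of 27.9 and 42.0 with high IL-3 and of 52.0 and 50.4 with low IL-3. Experiment 2 gave 46.2, then 42.6 and 82.0, and 80.9 and 50.1. Its changes by 4 h, 0.12 (SE 0.22, adjusted p = 0.659) in low and 0.31 (SE 0.22, adjusted p = 0.265) in high IL-3, did not pass. Another, near background throughout, was not tested. Fdft1 1438919_x_at had an intensity of 5.67 at 0 h in experiment 1, of 2.5 and 1.00 with high IL-3 and of 1.00 and 5.32 with low IL-3. Experiment 2 gave 4.10, then 4.33 and 11.2, and 7.75 and 6.86. The 3 tested Fdft1 probe sets thus disagree: both brighter ones fell, and the dim one was not called in either direction as deposited. After scaling to the 75th percentile the dim one was called as a rise by 2 h in low and by 4 h in high IL-3.

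Squalene epoxidase, Sqle, adds the oxygen that lets squalene close into rings and is a rate-limiting step of the sterol branch. It has a single probe set. Sqle 1415993_at had an intensity of 2108 at 0 h in experiment 1, of 995 and 265 with high IL-3 and of 1151 and 296 with low IL-3. Experiment 2 gave 1627, then 604 and 152, and 637 and 178. In each experiment the order was 0 h, then both 2 h arrays, then both 4 h arrays, with the low IL-3 array above the high IL-3 array at each time. The log2 change by 4 h was -2.92 (SE 0.13, adjusted p = 5.68e-10) with low IL-3 and -3.11 (SE 0.13, adjusted p = 3.34e-10) with high IL-3, and relative to the median -2.80 and -3.01. Counted from the largest fall in low IL-3, Sqle was number 142 of 11856, in the first 1.2% of tested probe sets. The half-life was 1.42 and 1.21 h in high and 1.53 and 1.29 h in low IL-3 for experiments 1 and 2. After 75th percentile scaling the mean moved from 1.31 to 1.55 h in high and from 1.41 to 1.72 h in low IL-3. After quantile normalization it was 1.45 and 1.60 h.

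Lanosterol synthase, Lss, folds oxidised squalene into the sterol skeleton. Lss 1420013_s_at had an intensity of 304 at 0 h in experiment 1, of 265 and 306 with high IL-3 and of 284 and 272 with low IL-3. Experiment 2 gave 275, then 240.2 and 287, and 259.7 and 280.2. The range over all 10 arrays was narrow. Its changes by 4 h were -0.063 (SE 0.14, adjusted p = 0.719) in low and 0.033 (SE 0.14, adjusted p = 0.867) in high IL-3, and the former became 0.36 after scaling to the 75th percentile and 0.39 after quantile normalization. Under either scaling a rise by 4 h was called at both doses. A dimmer probe set differed. Lss 1426913_at had an intensity of 65.6 at 0 h in experiment 1, of 82.5 and 114 with high IL-3 and of 88.4 and 124 with low IL-3. Experiment 2 gave 24.7, then 37.2 and 47.8, and 48.1 and 56.9. Each later array lay above the 0 h array of its experiment. It rose by 4 h, by 0.81 (SE 0.18, adjusted p = 0.00138) in low and 0.66 (SE 0.18, adjusted p = 0.00729) in high IL-3, the latter not without the 0 h array of experiment 2 or the 4 h high IL-3 array of experiment 1. Neither rise was called with no block for the experiment. The tested probe sets of Lss therefore disagree as deposited. The last was too dim to be tested. Lss 1420014_at had an intensity of 19.8 at 0 h in experiment 1, of 11.4 and 16.5 with high IL-3 and of 14.7 and 9.75 with low IL-3. Experiment 2 gave 10.6, then 18.2 and 21.8, and 16.7 and 30.7.

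Lanosterol demethylase, Cyp51, is the cytochrome P450 that acts on the first sterol. Cyp51 1450646_at had an intensity of 730.0 at 0 h in experiment 1, of 745 and 544 with high IL-3 and of 699.9 and 389.9 with low IL-3. Experiment 2 gave 595, then 521 and 380.5, and 547 and 284. The 2 h arrays stood near the 0 h arrays of their experiment, and the 4 h arrays were the lowest, with low IL-3 under high IL-3 in both experiments. At 2 h 93.8% ± 2.87 was left in low and 94.8% ± 10.3 in high IL-3, and at 4 h 50.6% ± 3.98 and 69.2% ± 7.47. The changes by 2 h, -0.09 (SE 0.12, adjusted p = 0.676) and -0.08 (SE 0.12, adjusted p = 0.693), did not pass, whereas those by 4 h, -0.95 (SE 0.12, adjusted p = 7.96e-06) and -0.52 (SE 0.12, adjusted p = 0.00272), did. The fall by 4 h in high IL-3 no longer passed under either scaling, and the mean half-life in low IL-3 moved from 4.89 h to 17.6 h and 17.0 h with them. Neither fall by 4 h passed with no block for the experiment. Cyp51 1422533_at had an intensity of 291 at 0 h in experiment 1, of 301 and 299 with high IL-3 and of 318 and 225 with low IL-3. Experiment 2 gave 175, then 229.7 and 137, and 212 and 156. On this dimmer probe set the changes by 4 h, -0.25 (SE 0.17, adjusted p = 0.222) and -0.14 (SE 0.17, adjusted p = 0.518), did not pass. By 2 h it was called as a rise at both doses under either scaling, though not as deposited. The last, under the limit of 50 on all arrays, was not tested. Cyp51 1422534_at had an intensity of 28.3 at 0 h in experiment 1, of 23.0 and 34.4 with high IL-3 and of 30.1 and 30.1 with low IL-3. Experiment 2 gave 14.5, then 15.7 and 8.63, and 14.5 and 16.9.

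**Figure D2:**
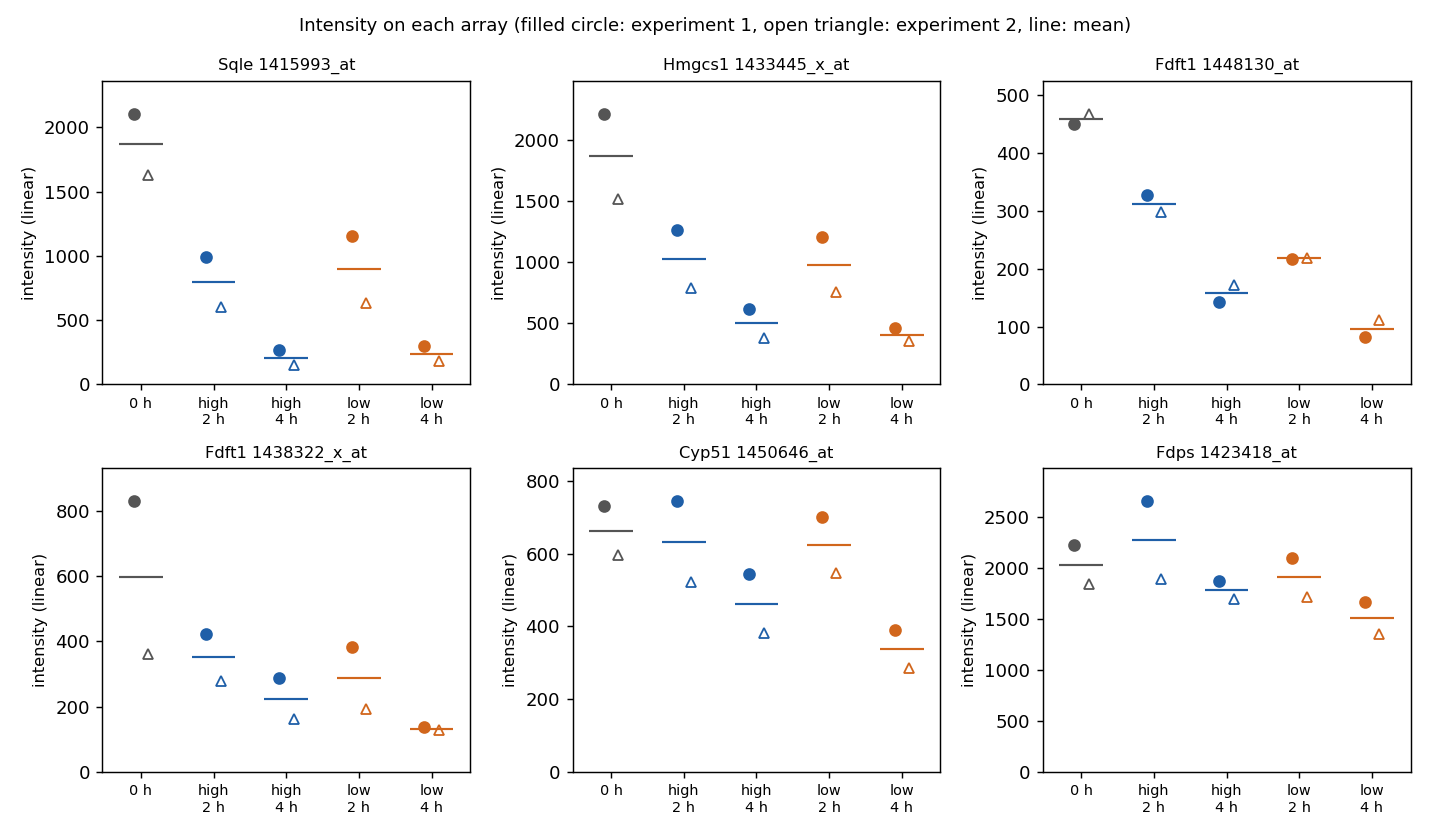
Intensity on a linear scale (y axis) on each array, for 6 member probe sets in the 5 groups (x axis), with filled circles for experiment 1, open triangles for experiment 2 and lines for the mean of both. Sqle and Hmgcs1 fall at both doses, both Fdft1 probe sets are higher in high IL-3 within each experiment, and Cyp51 stands near its 0 h signal at 2 h.

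The order of loss by the brightest probe sets at 4 h in low IL-3 ran from Sqle, with 12.5% ± 2.18 left, over Hmgcs1 with 22.0% ± 1.60 and Fdft1 with 25.8% ± 13.2, to Cyp51 with 50.6% ± 3.98, Fdps with 74.0% ± 1.13, Idi1 with 93.4% ± 8.76 and Lss with 95.7% ± 8.78. Hmgcs1 and Fdft1 are neighbours whose values overlapped between experiments, as were Idi1 and Lss. In high IL-3 the first places were the same, with Sqle at 10.9% ± 2.30, Hmgcs1 at 26.5% ± 1.88 and Fdft1 at 39.6% ± 7.28. Over all tested probe sets the median left was 92.4% in low and 93.5% in high IL-3 at 4 h.

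**Figure D3:**
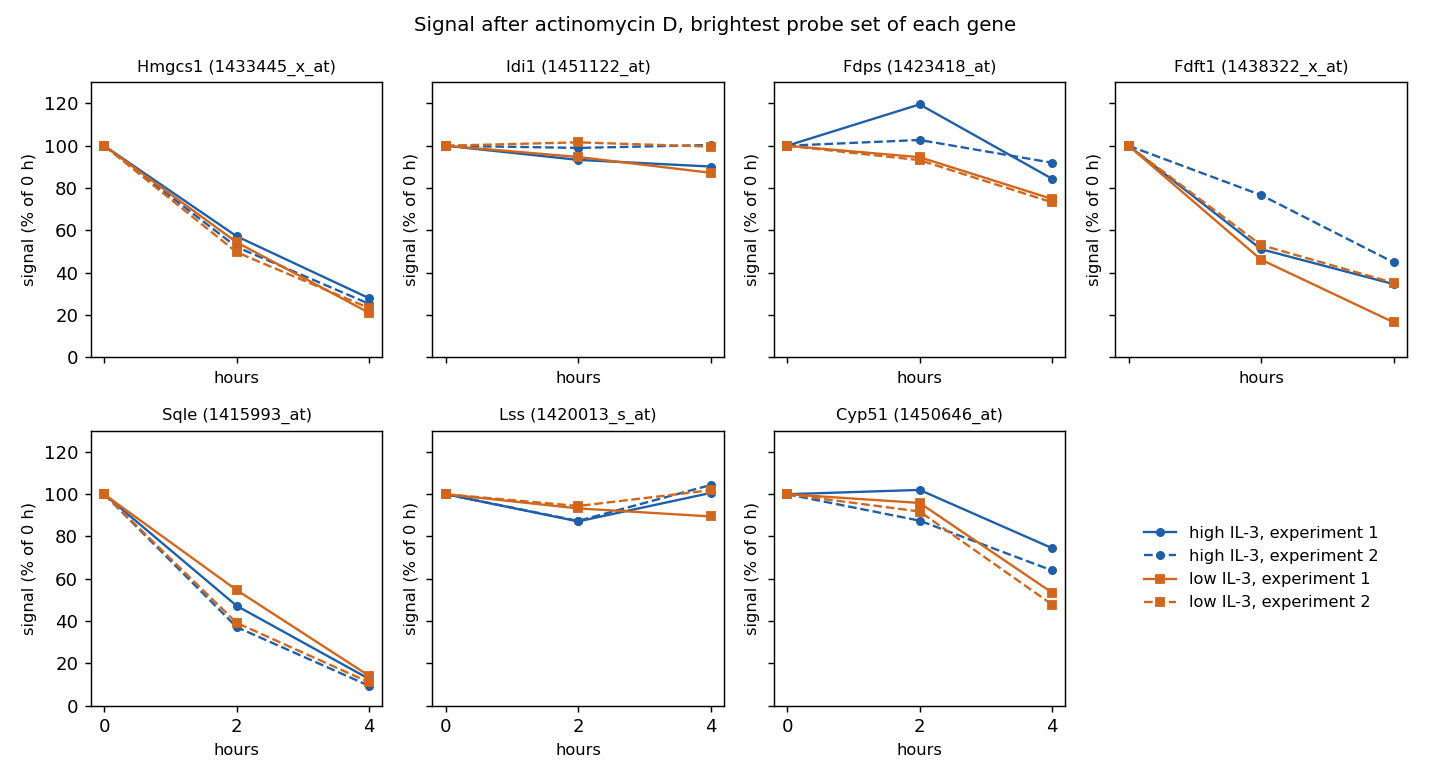
Signal left, in percent of 0 h within each experiment (y axis) against hours (x axis) for the brightest probe set of each of the 7 genes, in high IL-3 (blue circles) and low IL-3 (orange squares), with solid lines for experiment 1 and dashed lines for experiment 2. Hmgcs1, Fdft1 and Sqle fall from the start, Cyp51 falls mostly after 2 h, and Idi1 and Lss stay between 87.1% and 104% throughout.

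The loss was not even over the 4 h for all members. Sqle kept 46.9% of its signal over the first 2 h and 26.9% over the second in low IL-3, and 42.2% and 25.9% in high IL-3. Averaged over both doses, its second log2 change minus its first was -0.68 (SE 0.18, adjusted p = 0.0306), a contrast chosen after the values were seen. Taken separately it was -0.91 in experiment 1 and -0.45 in experiment 2. It was the 1 member probe set of 15 called in that contrast, in which 1.03% of all tested probe sets were lower and 4.98% higher. The call was lost when any of 8 arrays was left out, with adjusted p of 0.05 to 0.231, and with a pseudocount of 64, no filter, no variance trend or no block. Cyp51 1450646_at differed by -0.57 (SE 0.16, adjusted p = 0.0554) and Fdps 1423418_at by -0.36 (SE 0.12, adjusted p = 0.1), neither past the threshold as deposited, though both passed under either scaling. Hmgcs1 1433445_x_at, at -0.21 (SE 0.15, adjusted p = 0.59), and Fdft1 1448130_at, at -0.22 (SE 0.21, adjusted p = 0.714), did not pass.

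**Figure D4:**
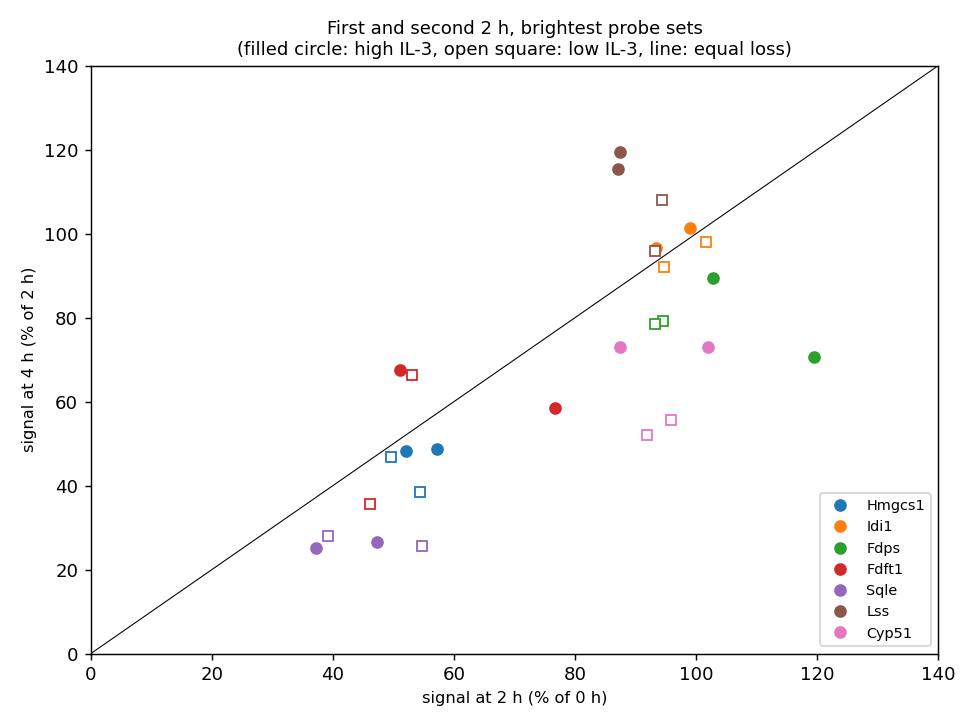
Signal at 4 h in percent of 2 h (y axis) against signal at 2 h in percent of 0 h (x axis) for the brightest probe set of each gene, with filled circles for high IL-3, open squares for low IL-3, 1 symbol for each experiment and a line where both intervals keep the same share. Sqle, Hmgcs1, Cyp51 and Fdps lie under the line in both experiments and at both doses.

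Setting both doses side by side asks whether the cytokine keeps a message from being lost. Over 2 h and 4 h together, 1 of the 15 member probe sets was higher in high IL-3 and none was lower, while 0.692% of all tested probe sets were higher and 0.0169% lower. The one was Fdft1 1448130_at, whose high minus low IL-3 value was 0.56 (SE 0.11, adjusted p = 0.0305). Taken separately it was 0.62 in experiment 1 and 0.50 in experiment 2. It was higher in high IL-3 in 4 of 4 pairs of arrays matched for time within an experiment. The 4 pairs come from 2 cultures and are not separate evidence. For this and the other pair counts no share over all tested probe sets is given, so that they are description only. The call rests on 6 of the 10 arrays. It was lost without the 2 h high IL-3 array of experiment 1, without either 4 h high IL-3 array, without either 2 h low IL-3 array and without the 4 h low IL-3 array of experiment 1, with adjusted p from 0.0613 to 0.238. It was lost as well with no filter on signal, with no variance trend and with no block for the experiment. Fdft1 1438322_x_at differed by 0.49 (SE 0.14, adjusted p = 0.178) and the dim 1438918_at by -0.25 (SE 0.15, adjusted p = 0.736), neither past the threshold.

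None of the other members passed. Fdps differed by 0.24 (SE 0.063, adjusted p = 0.115), was higher in high IL-3 in 4 of 4 pairs, and passed only when the 2 h high IL-3 array of experiment 2 was left out. For Hmgcs1 the differences of the 4 probe sets ran from 0.15 to 0.35, with adjusted p from 0.204 to 0.689. Cyp51 1450646_at differed by 0.22 (SE 0.088, adjusted p = 0.441). Sqle, the fastest to go, was lower in high IL-3 in 4 of 4 pairs, but its difference of -0.16 (SE 0.094, adjusted p = 0.715) did not pass, with a 95% interval of -0.36 to 0.038. The 95% interval for Idi1 1451122_at was -0.13 to 0.13 and that for Lss 1420013_s_at -0.21 to 0.21, which leaves room for small differences in either direction.

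At 2 h alone no member probe set was called by limma, while 0.059% of all tested probe sets were higher, and at 4 h none was called, while 0.388% were higher and 0.0169% lower. At an unadjusted p under 0.05, 5 member probe sets differed at 2 h and 5 at 4 h, of 868 and 867 over all. At 2 h, 4 of the 5 were higher in high IL-3 and 1 lower, the dim Fdft1 1438918_at at -0.68 (SE 0.22, adjusted p = 0.505), and at 4 h all 5 were higher. At 4 h Fdft1 1448130_at differed by 0.63 (SE 0.16, adjusted p = 0.128), Fdft1 1438322_x_at by 0.65 (SE 0.20, adjusted p = 0.281) and Cyp51 1450646_at by 0.43 (SE 0.12, adjusted p = 0.238). The change of the dose effect from 2 h to 4 h was called for none of the members and for 0.0% of all tested probe sets, with 3 member probe sets and 684 of all at an unadjusted p under 0.05. The area between the decay curves of both doses, divided by the variability of probe sets of like 0 h signal (the g_score, recomputed here), placed Fdft1 1448130_at at rank 86, Fdft1 1438322_x_at at 158, Hmgcs1 1433446_at at 174, Fdps 1423418_at at 345 and Sqle at 11280 of 22690 probe sets. The other tested probe sets of Hmgcs1 ranked 829, 1940 and 2212, and Fdft1 1438918_at ranked 20571. Those of Cyp51 ranked 1125 and 12421, of Idi1 6435 and 6490, and of Lss 8307 and 22069. After the study's definition, high IL-3 ratios to 0 h above 1 were set to 1 and low IL-3 ratios were not. This lowers the score of a probe set whose high IL-3 signal lies above 0 h. These ranks moved with the settings. Over 5 other settings Fdft1 1448130_at ranked from 42 to 399, Fdft1 1438322_x_at from 84 to 857, Hmgcs1 1433446_at from 104 to 723, Fdps from 226 to 13038 and Sqle from 8635 to 20870. Idi1 1423804_a_at ranked from 445, with no limit on the ratios, to 18279. Lss 1426913_at ranked from 10267, with the limit on both curves, to 21950.

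**Figure D5:**
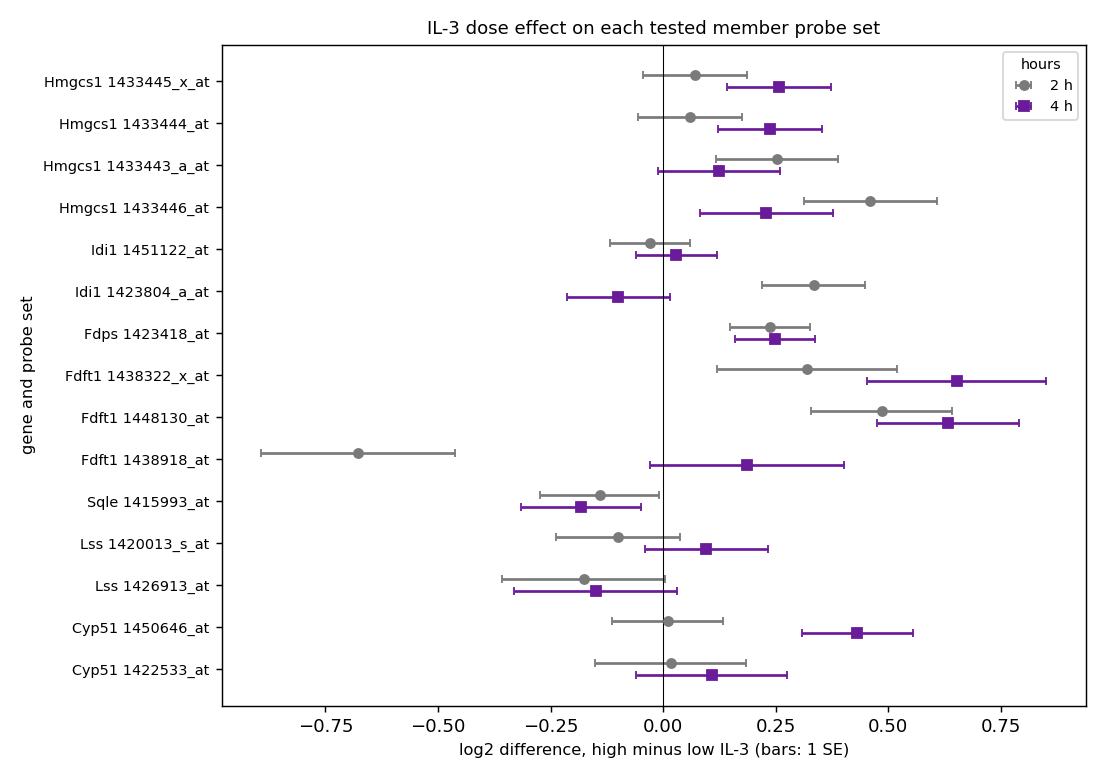
Log2 difference of high minus low IL-3 (x axis, bars of 1 SE) at 2 h (grey circles) and 4 h (purple squares) for each of the 15 tested member probe sets (y axis). Fdft1 1448130_at lies at 0.49 and 0.63, Sqle at -0.14 and -0.18, and the Idi1 1451122_at values straddle 0.

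The surroundings of the pathway were read from 8 lists of 86 further genes, of which 60 had tested probe sets, 94 in number. None of the 94 was called between the doses, over both times or at either. By 4 h in low IL-3, 23 of the 94 (24.5%) had fallen and 18 (19.1%) had risen, and in high IL-3 18 had fallen and 15 had risen. Over all tested probe sets the shares were 38.3% and 15.3% with low IL-3 and 35.4% and 9.67% with high IL-3. After scaling to the 75th percentile the 94 had 55 rises and 11 falls in low IL-3, and after quantile normalization 51 and 13. As for the members, the rises named below are of relative signal, which the study treats as measurement noise.

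Among other mevalonate enzymes, 2 of 8 tested probe sets rose and none fell by 4 h in low IL-3, and 7 rose under either scaling. Acat1, listed here for its reaction, encodes the mitochondrial acetoacetyl-CoA thiolase of ketone body and isoleucine breakdown, and the cytosolic enzyme that feeds the mevalonate pathway, Acat2, was not analysed here. Acat1 1424182_at reached 175% ± 54.4 of 0 h, a log2 change of 0.73 (SE 0.16, adjusted p = 0.00138), while its brighter probe sets did not pass. Mvd 1448663_s_at, of mevalonate diphosphate decarboxylase, reached 147% ± 3.90, with 0.50 (SE 0.17, adjusted p = 0.0221).

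Of the enzymes that trim lanosterol to cholesterol, 1 of 9 probe sets fell and 4 rose, the rises being 8 and 7 under the 2 scalings. Msmo1, the methylsterol oxidase that acts soon after Cyp51, fell to 42.1% ± 3.49 in low and 50.5% ± 4.66 in high IL-3, with a log2 change of -1.23 (SE 0.11, adjusted p = 1.03e-07) in low IL-3. The rises were of dimmer probe sets: Tm7sf2, a sterol reductase, changed by 0.79 (SE 0.17, adjusted p = 0.00115), and Hsd17b7, a ketosteroid reductase of the pathway, by 0.57 (SE 0.21, adjusted p = 0.0299) and 0.57 (SE 0.17, adjusted p = 0.0126) on its probe sets. Ebp, a sterol isomerase, rose by 0.31 (SE 0.12, adjusted p = 0.0481).

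Among the genes that sense sterols and process SREBPs, 4 of 12 tested probe sets fell in low IL-3 and none rose, against 2 falls and 3 rises under either scaling. Srebf1, which encodes SREBP-1, fell to 46.2% ± 8.69 in low and 45.6% ± 6.32 in high IL-3, with changes of -1.10 (SE 0.13, adjusted p = 3.90e-06) and -1.11 (SE 0.13, adjusted p = 4.03e-06). Srebf2, which encodes SREBP-2, the main activator of cholesterol synthesis, had changes in low IL-3 of -0.23 (SE 0.12, adjusted p = 0.118) and 0.10 (SE 0.14, adjusted p = 0.588) on its probe sets, and the first turned positive under both scalings. Scap, the escort of SREBPs, had 0.066 (SE 0.11, adjusted p = 0.648). Mbtps1 1448240_at, of the protease that cuts SREBPs first, changed by -0.86 (SE 0.14, adjusted p = 8.33e-05) in low IL-3, and its dimmer probe sets did not pass. Insig2, which retains SCAP, fell on 2 of 3 probe sets in low IL-3, with -0.47 (SE 0.15, adjusted p = 0.0185) and -0.44 (SE 0.17, adjusted p = 0.0397), and on none in high IL-3, and neither call held under either scaling.

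Squalene epoxidase is among the enzymes of the pathway that the cell also destroys on demand, and of 10 probe sets for that machinery 4 fell and 3 rose by 4 h in low IL-3, or 3 fell and 6 or 5 rose after the 2 scalings. Rnf145, a ubiquitin ligase of the endoplasmic reticulum, fell to 30.2% ± 0.932, Ube2j2, a ubiquitin-conjugating enzyme of the same membrane, to 32.0% ± 0.666, and Marchf6, the ligase for squalene epoxidase, to 50.6% ± 4.65. Their adjusted p were 7.97e-08, 5.51e-08 and 2.21e-06. Ube2g2, another conjugating enzyme, rose on both probe sets, by 0.93 (SE 0.18, adjusted p = 3.83e-04) and 0.53 (SE 0.13, adjusted p = 0.00266), and Ufd1, a partner of the VCP segregase, on 1 of 2, by 0.28 (SE 0.10, adjusted p = 0.0354).

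For uptake and transport of cholesterol, 4 of 15 probe sets fell and 3 rose, against 2 falls and 9 rises under either scaling. Mylip, a ubiquitin ligase that limits cholesterol uptake, fell to 16.9% ± 0.588 in low and 27.1% ± 1.48 in high IL-3, with a log2 change of -2.14 (SE 0.24, adjusted p = 1.25e-06) in low IL-3. Stard3, a cholesterol carrier of late endosomes, changed by -1.34 (SE 0.16, adjusted p = 2.24e-06) and the sterol-binding Osbp by -0.64 (SE 0.14, adjusted p = 0.00141), the latter not past the threshold under either scaling. Lipa, the lysosomal lipase that frees cholesterol from its esters, rose on all 3 probe sets, by 0.65 to 0.87 with adjusted p of 4.62e-04 to 0.00813. In the list of sterol efflux and LXR genes 2 probe sets were tested, and neither was called as deposited, while 1 rose under either scaling.

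The fatty acid branch that SREBP-1 serves had 6 of 22 probe sets down and 5 up by 4 h in low IL-3, which became 2 down and 13 up after scaling to the 75th percentile and 4 down and 11 up after quantile normalization. Mid1ip1, which helps acetyl-CoA carboxylase to polymerise, fell to 27.2% ± 3.27, a change of -1.81 (SE 0.13, adjusted p = 1.00e-08). Lpin1, a phosphatidate phosphatase, changed by -0.85 (SE 0.17, adjusted p = 6.36e-04), and Fasn, fatty acid synthase, by -0.67 (SE 0.092, adjusted p = 1.32e-05), the last not called after scaling to the 75th percentile. Acss2, acetyl-CoA synthetase, rose by 0.84 (SE 0.19, adjusted p = 0.00171) and 0.69 (SE 0.17, adjusted p = 0.00273) on its probe sets. Fads2, a fatty acid desaturase, rose on both of its probe sets, with 0.64 (SE 0.12, adjusted p = 2.81e-04) on the brighter.

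In the isoprenoid branch, which uses farnesyl diphosphate for protein prenylation and dolichol, 4 of 16 probe sets fell and 1 rose, against 1 fall and 8 rises under either scaling. Rabggtb and Rabggta, the subunits of the enzyme that prenylates Rab proteins, changed by -0.98 (SE 0.12, adjusted p = 4.66e-06) and -0.74 (SE 0.18, adjusted p = 0.00228) in low IL-3, Rabggta not past the threshold under either scaling. Nus1, a subunit of the dolichol chain synthase, gave opposite calls on its probe sets, -0.57 (SE 0.14, adjusted p = 0.00351) and 0.44 (SE 0.13, adjusted p = 0.00896), of which the fall was lost under either scaling.

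Likeness of pattern was taken as Pearson's r over the 10 arrays, with the mean of each experiment removed, and is given as a description, since arrays share the same cultures and normalization. Nearest to Sqle were Kpna2 (r = 0.998), Rab14 (r = 0.997) and Rad51ap1 (r = 0.997), and nearest to Fdft1 1438322_x_at were Vta1 (r = 0.995), Wbp4 (r = 0.992) and Strn3 (r = 0.991). Among the members, Hmgcs1 and Sqle had r = 0.980, Hmgcs1 and Fdft1 0.937, and Sqle and Fdft1 0.859, whereas Lss had r of -0.364 to 0.288 with the other 6. A mean intensity of at least 50 was reached by 9 of 12 myeloblast and granule genes and by 0 of 7 measured lymphoid genes. It was also reached by 3 of 8 macrophage, 4 of 8 mast cell and basophil and 4 of 6 erythroid and megakaryocyte genes. Detection at that limit therefore does not single out the labelled cell. By 4 h in low IL-3, 7 of 11 tested probe sets of the myeloblast and granule list had fallen and 2 had risen. The median log2 change was -1.01. In high IL-3 7 had fallen and 1 had risen, with a median of -0.86. Over all tested probe sets 38.3% fell and 15.3% rose in low IL-3, with a median of -0.12. In high IL-3 these were 35.4%, 9.67% and -0.097. After scaling to the 75th percentile the list had 6 falls and 5 rises in low and 6 and 4 in high IL-3. After quantile normalization it had 6 falls and 3 rises at either dose. The summed intensity of the list ran from 10274 to 16049 at 0 h and from 7626 to 12996 at 4 h in low IL-3. The summed intensity of the mast cell and basophil list ran from 3429 to 3931 and from 1573 to 3027 on the same arrays. Of its 5 tested probe sets, however, 2 had fallen and 2, or 3 under either scaling, had risen. Both falls were of Gata2, a transcription factor also of blood progenitors, to 8.83% ± 0.564 and 13.7% ± 2.33, while the granule protease Mcpt8 and the IgE receptor chain Fcer1a rose, and these names were chosen after their values were seen. The part of these markers in the loss of the members was not tested. Array medians ran from 48.8 to 70.6, and an intensity of 50 was reached by 11280 to 12155 probe sets on each array.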

How the data were processed

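RNA of 32Dcl3 cells from 2 experiments, 5 samples each, was hybridised to 10 Affymetrix mouse arrays. The authors normalised all 10 arrays together with dChip at its default settings and deposited intensities on a linear scale for 22690 probe sets; its version was not given in the sources used here. Such scaling can hide a change of total RNA. With 2 arrays in a group the precision is limited. Groups and experiment numbers came from the labels. Arrays of one experiment came from 1 divided culture and deviated together (correlations of deviations from group means of 0.762 to 0.887 over 10 pairs of groups).

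Of the probe sets, 20393 name 1 gene, 691 several and 1606 none in the platform annotation, and 20364 symbols were updated by gene ID through a RefSeq table (GRCm38.p6). limma 3.58.1 in R 4.3.3 was fitted to log2(intensity + 16) of the 11856 probe sets with a mean of at least 50, with 5 groups, the experiment as block and a variance trend. All adjusted p in the text are from this fit, two-sided, by Benjamini-Hochberg over all tested probe sets of a comparison, called under 0.05. The code was tested on simulated data. Half-lives are from the slope of the log ratio through 0 h. The g_score follows the definition in the study's supplementary methods.

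The members and lists were chosen with earlier results of these data known. All member probe sets are described. From each other list, up to 3 largest rises and 3 largest falls by 4 h in low IL-3 among those called are named, with Srebf1, Srebf2, Scap and Insig2; some items of that rule are not reported here. Alternatives were pseudocounts of 1 and 64, no filter, a mean of at least 200, 75th percentile scaling, quantile normalization, no variance trend, no block, and each array left out, where the lone array of a group is assumed to vary like the other groups.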

Additional observations from a re-analysis of the deposited data

How the results depend on the processing

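Of the calls and values of single member probe sets under 18 alternatives, 2317 kept their side of the threshold, 60 lost a call, 27 gained one, and 8 changed sign with a call in at least one of the fits. Of the 2317, 95 changed sign without a call in either fit, 30 of them under the 2 scalings. The 8 were those of Idi1 1451122_at after 75th percentile scaling (0.25 and 0.34 by 2 h and 4 h with low IL-3, 0.21 and 0.36 with high IL-3), of Fdps 1423418_at after it (0.011 and 0.25 by 4 h, low dose first), and of Lss 1420013_s_at by 4 h in low IL-3 (0.36 after it, 0.39 after quantile normalization). Without the replicate block, which pairs the arrays of an experiment, the dose effect over 2 h and 4 h had 0 member probe sets called and 0 of all (84 as reported), at 2 h 0 (7), at 4 h 0 (48). The other counts without it were 1 member and 338 of all by 2 h in low IL-3 (7 and 2913), 0 and 192 by 2 h in high IL-3 (7 and 3098), 2296 of all by 4 h in low IL-3 (6354), 1842 in high IL-3 (5348), and 0 members and 5 of all for the second minus the first 2 h (1 and 713). With no filter on signal, members called for the dose over both times were 0 (23 of all), at 2 h 2 of all and at 4 h 7, and 0 members for the second minus first 2 h. With no variance trend these were 0 (13), 1, 3 and 0. With a mean of at least 200, counts over all were 1 for the change of the dose effect, 1759, 4190, 1934 and 3470 for 2 h and 4 h in low and then high IL-3, and 267 for the second minus first 2 h, fewer probe sets being tested. A pseudocount of 64 gave 17 at 4 h for the dose and 0 members for the second minus first 2 h. After 75th percentile scaling the counts were 2 and 20 for the dose at 2 h and 4 h, 11 members and 6036 of all by 2 h in low IL-3, 5224 and 8539 by 2 h and 4 h in high IL-3, and 3 members for the second minus first 2 h. After quantile normalization they were 2, 29, 4538 by 2 h in low IL-3 and 3 members. With 1 array left out at a time, members called ranged from 0 to 2 for the dose over both times (22 to 157 of all), from 4 to 7 by 2 h in high IL-3 and from 0 to 1 for the second minus first 2 h (376 to 854 of all). Over all probe sets the ranges were 2 to 233 for the dose at 2 h, 4 to 68 at 4 h, 0 to 147 for its change, and 1625 to 3109 by 2 h in low IL-3. The cause of these shifts was not tested. Dim probe sets close to the limit of 50 are read with the least precision.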
